A study of Rattus norvegicus with 32 samples.

Results

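Red blood cell transcripts were followed through 32 rat brain libraries. The starting list held 4 genes, Hbb, Hba1, Hba2 and Alas2, of which 2 (Hbb and Alas2) stand under those symbols among the 22587 genes of the table. The symbols Hba1 and Hba2 do not occur in it. RefSeq gives Hba1 as an older name of Hba-a1 and of Hba-a2, and Hba2 as an older name of Hba-a2, and the table holds both of these and Hba-a3, so that 5 erythroid genes are described. The α globin genes are near-identical copies of each other, and rat Hbb has close relatives on the same chromosome. How reads that match several copies were counted was not given in the sources used here, so the split among the α genes is uncertain.

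Messenger RNA came from 2 brain regions, brainstem and hypothalamus, of 13-week-old Wistar Kyoto rats, a laboratory strain bred as the normotensive counterpart of hypertensive rats. One set of rats was SHAM-operated, and the other had both adrenal glands removed (Total Bilateral Adrenalectomy, ADREX), which leaves the body without its source of corticosterone and adrenaline in the blood. Exposure was either to filtered air or to 0.8 ppm of ozone, lasting 4 hours, and both tissues were then taken at once and flash frozen. The 8 groups of 4 libraries were thus brainstem and hypothalamus from sham rats in air, sham rats in ozone, ADREX rats in air and ADREX rats in ozone. Each of the 16 sample numbers occurs once in each tissue, and the labels do not state that a number marks one animal or that libraries of a group came from separate animals. Where a rat is given by a number below, the number names its library. The p-values thus reflect only how far these libraries spread, which may be technical. Whether blood was flushed from the vessels before dissection was not given in the sources used here.

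Hemoglobin, the oxygen carrier of red cells, is a tetramer of a pair of α and a pair of β globin chains, each holding a heme group. Alas2 is the erythroid form of 5-aminolevulinate synthase, which makes the first committed precursor of heme, while Alas1 serves the same step in other tissues. Mature mammalian red cells have no nucleus, and globin messenger RNA is carried mostly by young red cells, the reticulocytes, so that blood left in the vessels of a dissected tissue brings globin transcripts into its library. Some neurons and glia have also been described to transcribe globin genes at low level. In tissue RNA, fewer cells of a type and less RNA per cell cannot be told apart.

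Libraries held 6.44 to 12.4 M reads. The 5 erythroid genes together took 60 to 7247 of these reads per library, between 0.000802% (95% Wilson interval 0.000623 to 0.00103, hypothalamus of ADREX rat number 84 in ozone) and 0.0954% (0.0932 to 0.0976, brainstem of sham rat number 17 in ozone), with a median of 0.0152%. Such intervals cover counting error only. The tissue labels matched regional markers, all called by limma. Of hypothalamic genes tested, 7 of 7, among them Hcrt and Oxt, were higher in the hypothalamus (median log2 difference 6.12). Of hindbrain genes tested, 7 of 7, among them Slc6a5 and Hoxb5, were lower (median −5.93). Limma called 27.1% of all genes higher and 26.9% lower. The sum of 13 liver transcripts, led by albumin (Alb), ranged from 13.8 to 3886 RPM (reads scaled to a common library total), and 4 libraries exceeded 2000 RPM: both tissues of sham rat 18 in ozone, and the hypothalamus of sham rat 2 in air and of ADREX rat 68 in air. Without these 4 libraries, limma with the sample number left out called none of the erythroid genes in the contrasts below, as with all libraries. Values are normalized counts, that is reads divided by a size factor of the library and not by the length of the gene.

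Proximal promoters of the 4 globin genes are shown because their transcripts moved together across libraries, as described further on. Each line holds the 180 bases before the RefSeq start in the GRCr8 assembly, read 5′ to 3′ on the gene's own strand, which is the minus strand for all 4, at chr1:167663722-167663901 for Hbb, chr10:15842581-15842760 for Hba-a1, chr10:15829139-15829318 for Hba-a2 and chr10:15816944-15817123 for Hba-a3. Capitals mark matches on either strand to GATA (the core bound by GATA factors), CACCC (bound by Krüppel-like factors), CCAAT and ATAAA (part of the TATA element), of which adjacent matches may run together or overlap.
Hbb: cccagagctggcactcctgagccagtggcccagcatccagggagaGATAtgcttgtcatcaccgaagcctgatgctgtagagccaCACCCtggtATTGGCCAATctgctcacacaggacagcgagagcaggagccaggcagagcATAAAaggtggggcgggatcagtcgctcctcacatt
Hba-a1: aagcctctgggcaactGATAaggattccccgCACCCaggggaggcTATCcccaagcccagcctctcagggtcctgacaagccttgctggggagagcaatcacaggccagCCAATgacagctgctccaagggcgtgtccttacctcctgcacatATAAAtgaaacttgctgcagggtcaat
Hba-a2: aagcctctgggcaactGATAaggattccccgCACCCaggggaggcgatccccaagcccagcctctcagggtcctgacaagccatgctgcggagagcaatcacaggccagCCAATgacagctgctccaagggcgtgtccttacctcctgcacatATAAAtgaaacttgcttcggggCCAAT
Hba-a3: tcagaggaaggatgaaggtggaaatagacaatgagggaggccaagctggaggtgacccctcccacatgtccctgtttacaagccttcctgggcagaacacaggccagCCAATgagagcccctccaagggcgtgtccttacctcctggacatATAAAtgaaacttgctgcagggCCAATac

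The Hbb window held 1 GATA, 1 CACCC, 2 CCAAT and 1 ATAAA match. The Hba-a1 window held 2, 1, 1 and 1 of them, the Hba-a2 window 1, 1, 2 and 1, and the Hba-a3 window 0, 0, 2 and 1. All 4 globin windows thus held a CCAAT and an ATAAA match. The window of Alas2, which also moved with Hbb, held 1 GATA match and 0 of the other 3 motifs. Among 33469 promoter windows of the same length, 44.2% held GATA, 40.0% CACCC, 27.0% CCAAT and 29.9% ATAAA. The windows of Hba-a1 and Hba-a2 were identical at 174 of 180 bases (96.7%), and that of Hba-a3 matched Hba-a2 at 100 of 178 aligned bases (56.2%). Such matches are a description of these letters and not evidence of binding.

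Hbb, the β globin chain, ranged from 39.9 to 3691 normalized counts over the 32 libraries. In the brainstem it stood at 1166, 1236, 749.9 and 728 normalized counts in sham rats 1, 2, 3 and 4 in air. Sham rats 17, 18, 19 and 20 in ozone had 3691, 876, 669.5 and 748. The air group was compact, and the ozone group had 1 library far above the other 3. ADREX rats 65, 66, 67 and 68 in air had 662, 1481, 1002 and 115, and ADREX rats 81, 82, 83 and 84 in ozone had 1066, 368, 72.7 and 44.6. In ADREX rats the lowest libraries were number 68 in air and numbers 83 and 84 in ozone.

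The hypothalamus repeated this layout at lower values. Hbb stood at 514, 714, 449 and 488 in sham rats 1 to 4 in air and at 2743, 560.4, 513.6 and 406 in sham rats 17 to 20 in ozone. It stood at 290.5, 1011, 793 and 78.2 in ADREX rats 65 to 68 in air and at 753, 232, 47.5 and 39.9 in ADREX rats 81 to 84 in ozone. Number 17 was again the highest of its group, and numbers 68, 83 and 84 were again the lowest of all hypothalamus libraries. Over all 32 libraries the highest Hbb value was 92.6 times the lowest.

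**Figure D1:**
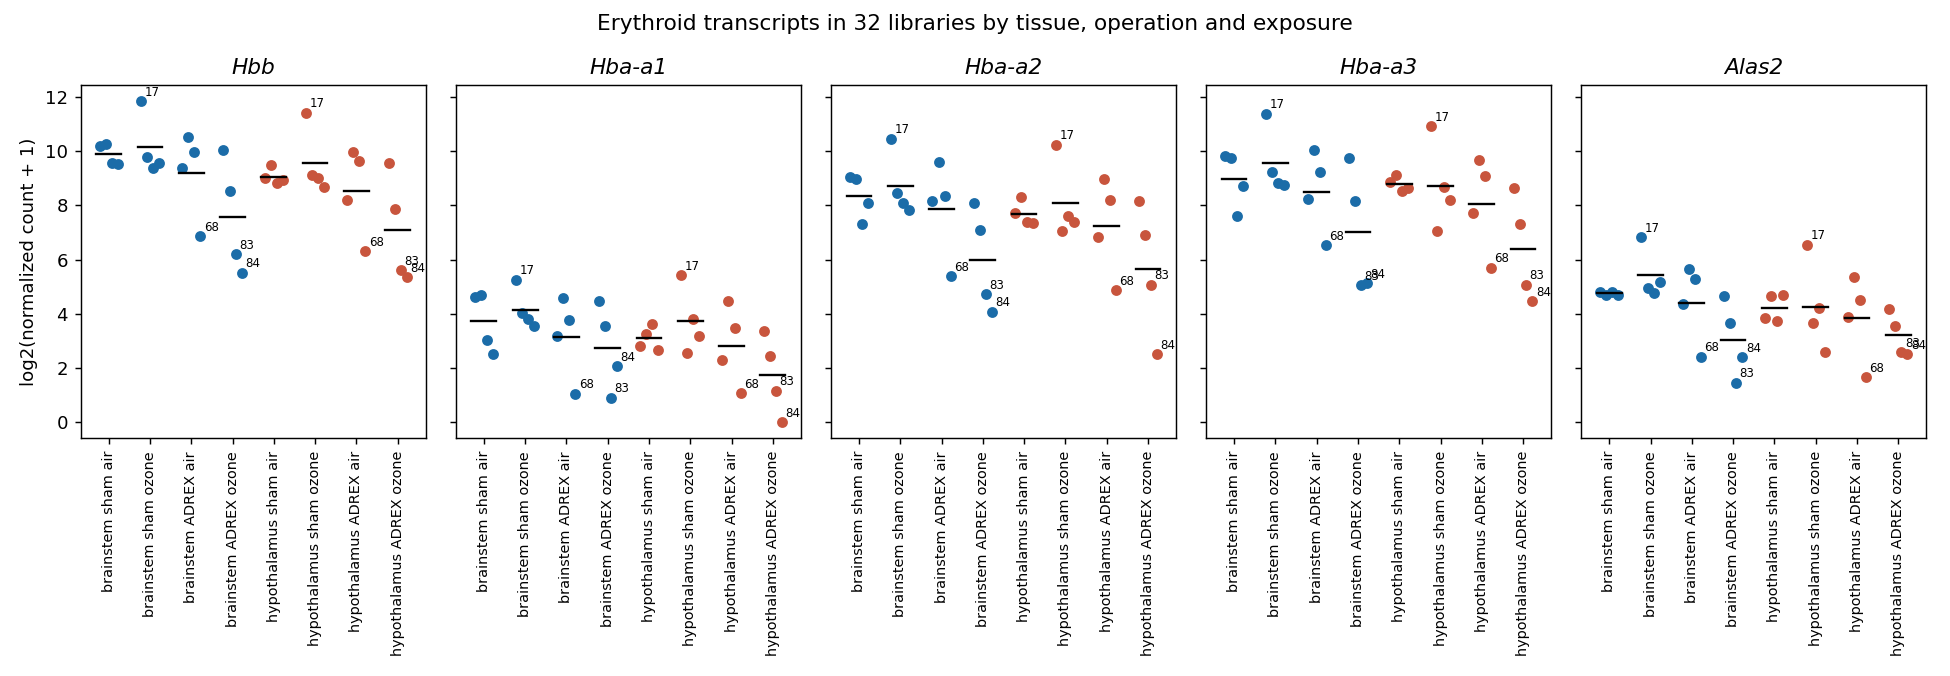
Normalized counts of Hbb, Hba-a1, Hba-a2, Hba-a3 and Alas2 on the log2(value + 1) scale (y axis) in the 8 groups of 4 libraries (x axis; brainstem blue, hypothalamus red); each point is 1 library, bars are group means, and numbers 17, 68, 83 and 84 are labelled. Number 17 was the highest sham ozone library for all 5 genes in both tissues, and numbers 68, 83 and 84 were low for most of them.

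Group means of Hbb ran, from high to low, 1496 ± 1465 (SD, n = 4) in brainstem sham ozone, 1056 ± 1127 in hypothalamus sham ozone, 970.3 ± 269 in brainstem sham air, 815 ± 575 in brainstem ADREX air, 543 ± 433 in hypothalamus ADREX air, 541 ± 118 in hypothalamus sham air, 388 ± 475 in brainstem ADREX ozone and 268 ± 335 in hypothalamus ADREX ozone. All 7 pairs of neighbours in this order differed by less than the larger of their SDs, and the same held for the 7 neighbouring pairs of each of the other 4 erythroid genes. The SD of Hbb within groups was 1.46 on the log2 scale, against a median of 0.244 over 14533 genes with a mean of 10 or more, which put Hbb at 1.38% from the most variable. Hba-a2 (1.60), Hba-a3 (1.58), Hba-a1 (1.25) and Alas2 (1.18) also stood within 1.83% of the top. The SD of Hbb in sham air, 269 and 118 in the 2 tissues, was the smallest of the groups in each tissue.

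Alas2, the erythroid enzyme of heme synthesis, was read at a far lower depth, with 2 to 103 reads per library. In the brainstem it stood at 26.9, 25, 27.0 and 24.9 normalized counts in sham rats 1 to 4 in air and at 112, 29.7, 26.3 and 35.4 in sham rats 17 to 20 in ozone. ADREX rats 65 to 68 in air had 19.3, 48.9, 37.5 and 4.33, and ADREX rats 81 to 84 in ozone had 24.3, 11.8, 1.75 and 4.25. Brainstem ADREX ozone libraries all lay below the sham ozone libraries, and number 17 again stood apart above its group. In the hypothalamus the values were 13.2, 24, 12.2 and 25 in sham air, 92.7, 11.8, 17.5 and 5.08 in sham ozone, 13.7, 40.1, 21.8 and 2.17 in ADREX air, and 16.9, 10.8, 5.00 and 4.69 in ADREX ozone, in the order of the numbers. These hypothalamic groups overlapped.

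The α globin genes followed the same libraries. Hba-a3 stood at 2659, 594, 458 and 432 normalized counts in brainstem sham rats 17 to 20 in ozone and at 854, 283, 32.4 and 34.0 in brainstem ADREX rats 81 to 84 in ozone. In the hypothalamus these groups had 1945, 132, 412 and 295.5, and 399, 159, 32.5 and 21.1. Number 17 led in both tissues, and the groups overlapped through number 81 in the brainstem and numbers 81 and 82 in the hypothalamus. In air, Hba-a3 lay between 194 and 893 in brainstem sham rats, 369 and 552 in hypothalamus sham rats, 90.9 and 1052 in brainstem ADREX rats and 51.1 and 817 in hypothalamus ADREX rats.

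Hba-a2 stood at 1405, 352, 272 and 229 in brainstem sham rats 17 to 20 in ozone and at 272.8, 137, 25.4 and 15.9 in brainstem ADREX rats 81 to 84 in ozone. The hypothalamus gave 1208, 132, 193 and 167 for the first of these groups and 288, 119.5, 32.5 and 4.69 for the second. Hba-a1 was the least read of the α genes, with 0 to 44 reads per library. Its highest values were 37.1 and 41.6 normalized counts, in brainstem and hypothalamus of number 17, and it had 0 reads in the hypothalamus of number 84, which allows up to 3.52 normalized counts (3 reads). Its mean in the hypothalamus, 9.38, was under the minimum of 10, so that it was left out of the fits across all genes in that tissue. By exact permutation its difference for ADREX against sham in ozone there was −1.99 on the log2 scale (p = 0.114).

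For ADREX against sham rats in ozone, all 5 erythroid genes had lower means in ADREX brainstem, and none passed the test. In limma's test on log2(normalized count + 1) with Benjamini-Hochberg adjustment over all genes, the log2 difference of Hbb was −2.57 ± 0.88 (SE; adjusted p = 0.197), that of Hba-a2 −2.71 ± 0.90 (adjusted p = 0.171), that of Hba-a3 −2.53 ± 0.96 (adjusted p = 0.28), that of Hba-a1 −1.41 ± 0.80 (adjusted p = 0.582) and that of Alas2 −2.38 ± 0.69 (adjusted p = 0.0975). The median log2 difference of all 14408 genes tested was −0.0045. Of the 5 genes 0 were called, where 2.44% of all genes were, and 4 had an unadjusted p under 0.05, where 11.2% of all genes had. Alas2 was the one member whose groups did not overlap, as was the case for 7.29% of all genes, and the exact permutation test gave it p = 0.0286, the smallest that 4 libraries against 4 can give.

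This contrast turned on the tool and on 1 library. DESeq2 on the recovered reads called 1 member, Alas2 (log2 difference −2.24, adjusted p = 0.0216), where it called 3.39% of all genes, and edgeR called 0 with 3 at an unadjusted p under 0.05. Without brainstem ADREX ozone 81, limma called 4 of the 5 genes, Hbb among them at a log2 difference of −3.39 (adjusted p = 0.0256) and Alas2 at −2.92 (adjusted p = 0.0218), where it called 3.08% of all genes. Over the libraries left out one at a time, Hbb ranged from −3.39 to −1.88 and Alas2 from −2.92 to −1.85, so that the direction held.

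In the hypothalamus the same contrast, also with 0 calls by edgeR and DESeq2, gave Hbb a log2 difference of −2.46 ± 0.88 (limma adjusted p = 0.23), Hba-a2 −2.41 ± 1.03 (adjusted p = 0.357), Hba-a3 −2.35 ± 0.94 (adjusted p = 0.312) and Alas2 −1.06 ± 0.78 (adjusted p = 0.648). Of the 4 genes tested 0 were called, where 2.24% of all genes were, and 3 had an unadjusted p under 0.05, where 12% of all genes had. Group means of Hbb were 268 ± 335 in ADREX against 1056 ± 1127 in sham (SD, n = 4 each). Numbers 82, 83 and 84 stood below the 4 sham ozone libraries and number 81 within their range.

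Ozone against air in sham rats gave no call among the erythroid genes in either tissue, where 0.979% of all genes were called in the brainstem and 1.59% in the hypothalamus, and none had an unadjusted p under 0.05. EdgeR and DESeq2 called no erythroid gene here or in the contrasts of the next paragraphs. Hbb differed by 0.26 ± 0.88 in the brainstem and 0.50 ± 0.88 in the hypothalamus on the log2 scale, and Alas2 by 0.68 ± 0.69 and 0.03 ± 0.78 (limma adjusted p = 0.998, 0.84, 0.998 and 0.992). Number 17 set the sign of the Hbb difference: without it the difference was −0.31 in the brainstem and −0.12 in the hypothalamus.

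Ozone against air in ADREX rats also gave no call, where limma called 0% of all genes in either tissue (851 and 1163 genes in brainstem and hypothalamus, and no erythroid gene, had an unadjusted p under 0.05; edgeR called 0 and 0 genes and DESeq2 1 and 0). The log2 difference of Hbb was −1.61 ± 0.88 in the brainstem (limma adjusted p = 0.801) and −1.43 ± 0.88 in the hypothalamus (adjusted p = 0.609), and that of Alas2 −1.37 ± 0.69 and −0.65 ± 0.78 (adjusted p = 0.801 and 0.772). Means of Hbb were 388 ± 475 in ozone and 815 ± 575 in air in the brainstem (SD, n = 4 each), and the groups overlapped. For ADREX against sham in air the Hbb difference was −0.70 ± 0.88 in the brainstem and −0.53 ± 0.88 in the hypothalamus, and that of Alas2 −0.33 ± 0.69 and −0.37 ± 0.78 (limma adjusted p from 0.959 to 1 over the members), with no member called where 0% and 0.0138% of all genes were. In the brainstem 545 genes, and no erythroid gene, had an unadjusted p under 0.05, and edgeR called 0 and DESeq2 16 genes, none of them erythroid. Here number 68 set the sign: without it Hbb differed by 0.08 in the brainstem and 0.21 in the hypothalamus.

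The interaction of operation and exposure asks whether the ADREX difference was another in ozone than in air. For Hbb it was −1.87 ± 1.24 in the brainstem and −1.93 ± 1.24 in the hypothalamus, and for Alas2 −2.05 ± 0.97 and −0.69 ± 1.10 (limma adjusted p = 0.994, 1, 0.942 and 1). No erythroid gene was called, where 0.201% and 0.138% of all genes were. The intervals ran from −4.49 to 0.76 for Hbb in the brainstem and from −4.56 to 0.70 in the hypothalamus, so that both a difference of several log2 units and none were within them.

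**Figure D2:**
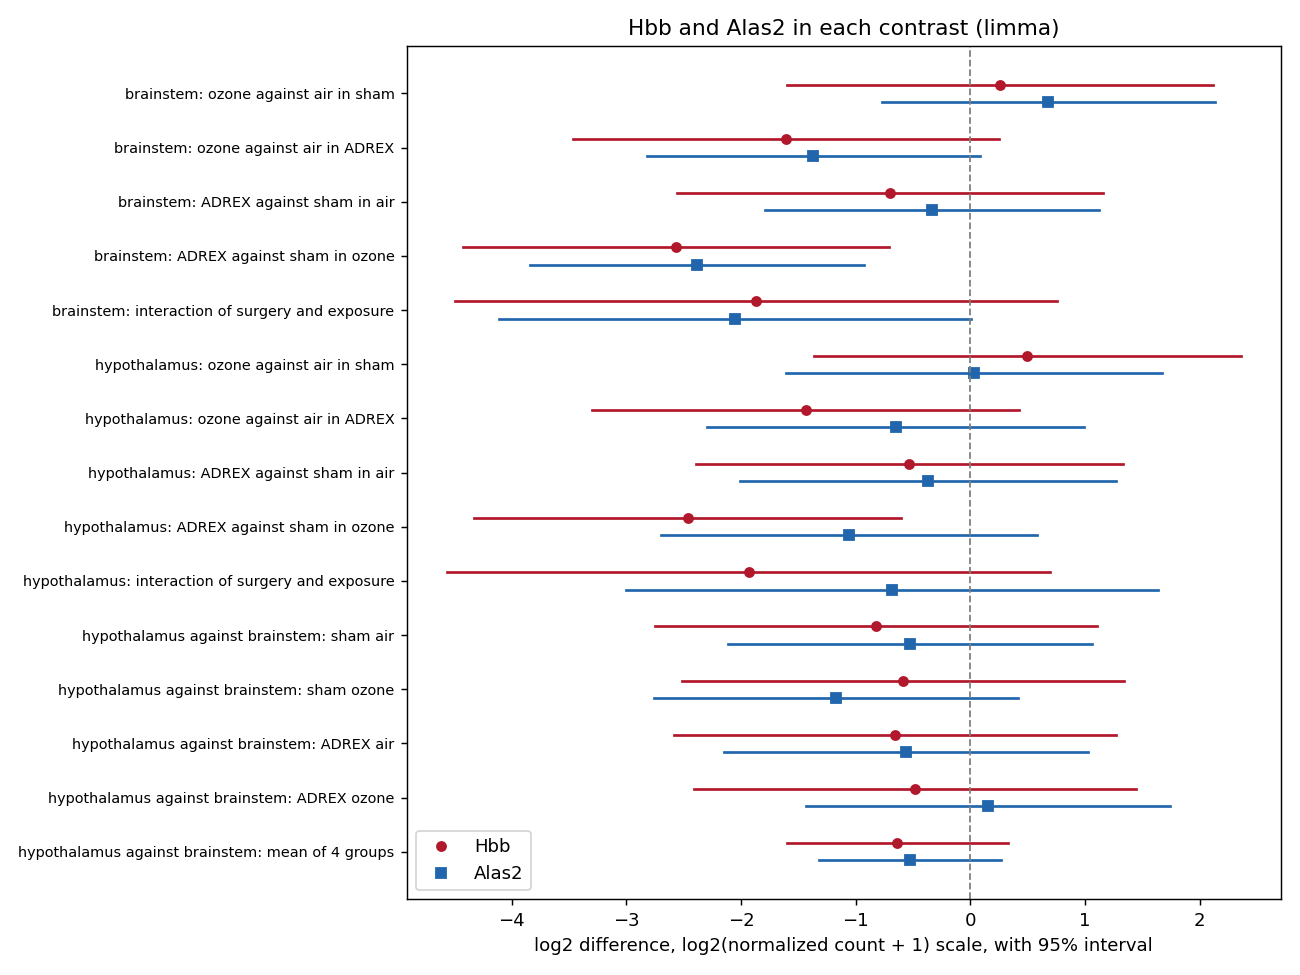
Log2 differences of Hbb (circles) and Alas2 (squares) with 95% intervals from limma (x axis) in the 15 contrasts (y axis): ozone against air, ADREX against sham and their interaction within each tissue, and hypothalamus against brainstem. The intervals of Hbb lie below 0 for ADREX against sham in ozone in both tissues (−2.57 and −2.46), as does that of Alas2 in the brainstem (−2.38). In these fits, which leave out the sample number, no contrast of either gene passed the adjusted threshold.

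Between tissues, Hbb was lower in the hypothalamus than in the brainstem library of the same number for 16 of 16 numbers. The ratio of hypothalamus to brainstem was 0.439 at the lowest, 0.661 at the median and 0.894 at the highest, and the mean log2 difference was −0.64 with an SD of 0.28 over the 16 numbers. Hba-a3 was lower in 14, Hba-a2 in 13, Alas2 in 13 and Hba-a1 in 11 of 16 numbers, with mean log2 differences of −0.53, −0.57, −0.53 and −0.59. Leaving out the 3 numbers of the libraries rich in liver transcripts, Hbb was lower in 13 of 13.

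Set against the spread between libraries of a group, and with the sample number left out of the fit, this difference between tissues did not pass limma's test. With the number as a block, limma called 5 of 5 genes for the mean of the 4 groups (lowest limma adjusted p = 3.49e-07), where 52.3% of all genes were. These fits are given with the alternatives since the labels do not say that numbers pair the libraries. With the number left out, as in the rest of this paragraph, the mean log2 difference of Hbb was −0.64 ± 0.47 (SE, limma adjusted p = 0.264). That of Alas2 was −0.53 ± 0.39 (limma adjusted p = 0.261). Of the 5 genes 0 were called, where 54.0% of all genes were. None had an unadjusted p under 0.05, and edgeR and DESeq2 called 0 as well. Within the groups 0 of 5 were called as well, where 31.0% of all genes were in sham air, 27.4% in sham ozone, 26.6% in ADREX air and 33.0% in ADREX ozone. The Hbb difference was −0.82 ± 0.94, −0.58 ± 0.94, −0.66 ± 0.94 and −0.48 ± 0.94 in these 4 groups, and that of Alas2 −0.53 ± 0.77, −1.17 ± 0.77, −0.56 ± 0.77 and 0.16 ± 0.77. In sham air the Hbb values did not overlap, with 449 to 714 in the hypothalamus and 728 to 1236 in the brainstem (exact permutation p = 0.0286), as was the case for 35.5% of all genes.

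The level of Hbb in one tissue went with its level in the other. Across the 16 numbers, log2(Hbb + 1) in hypothalamus and brainstem gave Pearson's r = 0.986 and Spearman's rho = 0.938 (permutation test with 100000 resamples, p = 1e-05 for both, the smallest they can give; adjusted p = 4e-05 over 16 relations computed). It was 0.973 without numbers 83 and 84, the 2 farthest from the median of the brainstem, 0.982 after the group means were subtracted, 0.892 without numbers 17, 68, 83 and 84, and 0.984 without the numbers of the libraries rich in liver transcripts. Leaving out any single number gave 0.982 to 0.990, so that r stayed high with and without the extreme numbers.

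Hba-a2 gave r = 0.946 and rho = 0.821, Hba-a3 0.930 and 0.888, Hba-a1 0.805 and 0.697, and Alas2 0.812 and 0.618 (permutation tests, adjusted p from 4e-05 to 0.021). Without numbers 17, 68, 83 and 84 the r of Hba-a2 was 0.696, that of Hba-a3 0.542, that of Hba-a1 0.383 and that of Alas2 0.316. The relations of Hba-a3, Hba-a1 and Alas2 no longer passed a permutation test over the other 12 numbers (p = 0.0727, 0.221 and 0.313, unadjusted). These 4 numbers were chosen after their Hbb values were seen. Leaving out extreme numbers also narrows the range and so tends to lower r, so this step cannot tell whether the relations rested on them. The same procedure gave Ttr, a choroid plexus transcript, r = −0.133, albumin (Alb) 0.039 and the synaptic gene Snap25 −0.143 (permutation tests, adjusted p from 0.32 to 0.88).

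**Figure D3:**
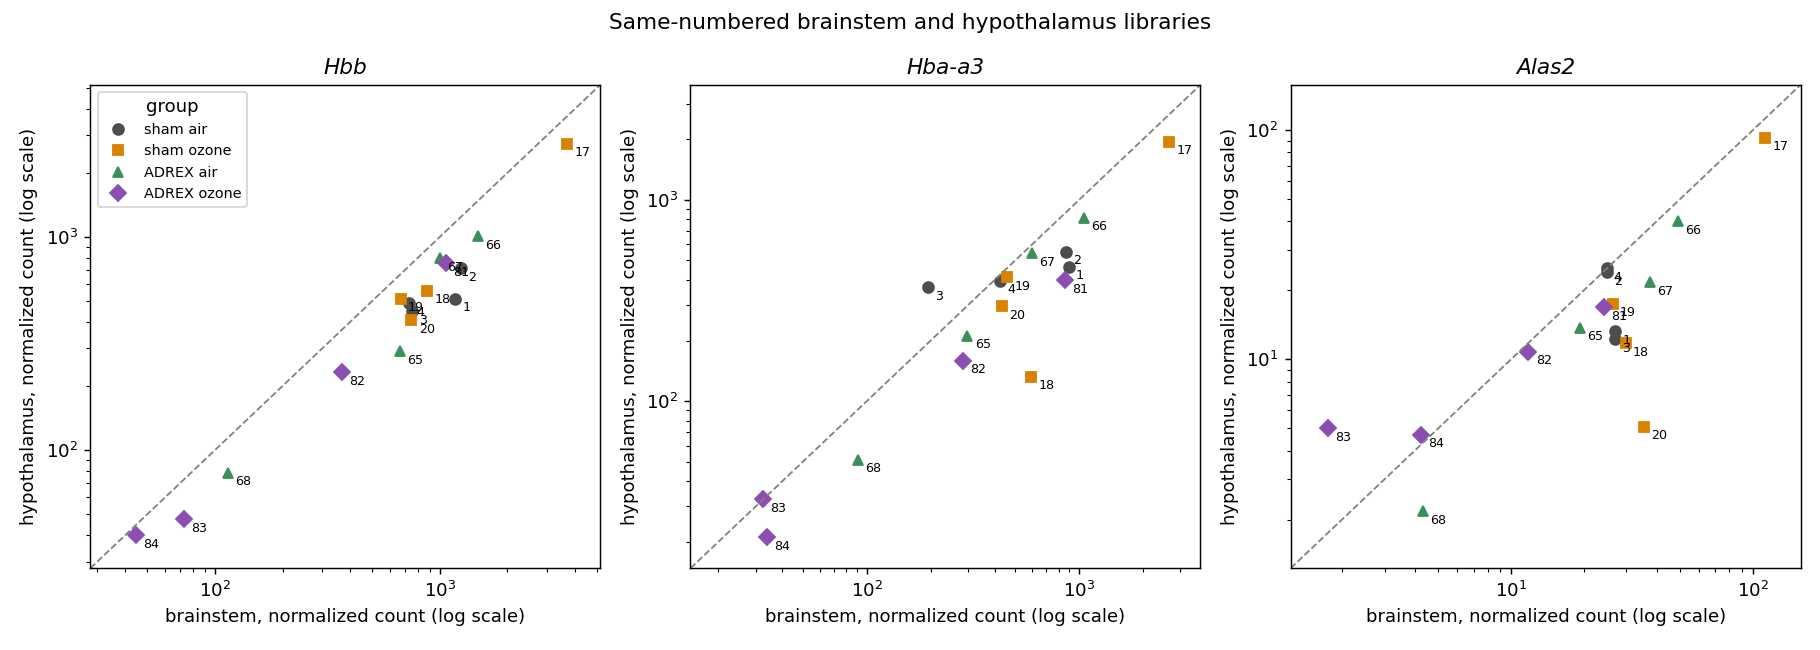
Normalized counts in the hypothalamus (y axis, log scale) against the brainstem (x axis, log scale) for Hbb, Hba-a3 and Alas2; each point is 1 of the 16 sample numbers, marked by group, and the dashed line marks equal values. All 16 Hbb points lie below the line, from number 84 at 44.6 and 39.9 to number 17 at 3691 and 2743.

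Over all 14533 genes with a mean of 10 or more the median r between same-numbered libraries was 0.0172, with quartiles of −0.169 and 0.217. A single gene, Gpd1 (a glycerol-3-phosphate dehydrogenase; r = 0.990), exceeded Hbb, and its r dropped to 0.799 after the group means were subtracted. On those deviations 0 genes exceeded Hbb. Hba-a3 deviated to the same side of its group mean in both tissues for 16 of 16 numbers, Hba-a2 for 15, Hbb for 14, Hba-a1 for 12 and Alas2 for 11.

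**Figure D4:**
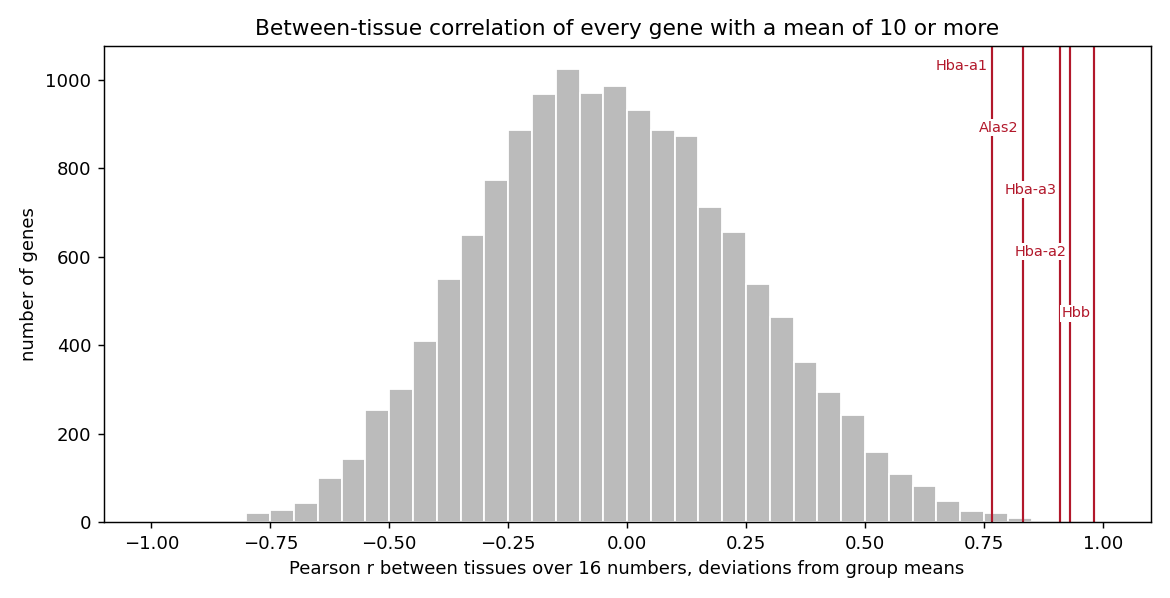
Number of genes (y axis) by Pearson's r between hypothalamus and brainstem over the 16 sample numbers, on deviations from group means (x axis), for 14533 genes, with the 5 erythroid genes as red lines. All 5 lie in the upper tail: Hba-a1 at 0.766, Alas2 at 0.832, Hba-a3 at 0.911, Hba-a2 at 0.931 and Hbb at 0.982.

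Within libraries the proportions of the erythroid genes varied far less than their levels. Reads of the 3 α genes per Hbb read had a median of 1.13 over the 32 libraries. They ranged from 0.479 in brainstem sham air 3 and 0.482 in hypothalamus sham ozone 18 to 1.39 in hypothalamus ADREX ozone 83. These 2 lowest libraries belong to different numbers and tissues, and hypothalamus sham ozone 18 is among those rich in liver transcripts. The others rich in them had ratios of 1.10 (brainstem sham ozone 18), 1.23 (hypothalamus sham air 2) and 1.03 (hypothalamus ADREX air 68). In number 17 the ratio was 1.11 in the brainstem and 1.16 in the hypothalamus, close to the median. The ratio is of reads and is not corrected for length.

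Reads of Alas2 per 1000 Hbb reads had a median of 33.7 and ranged from 12.5 to 118. The lowest, hypothalamus sham ozone 20, rested on 5 Alas2 reads (95% Poisson interval 4.06 to 29.2), and the highest, hypothalamus ADREX ozone 84, on 4 (32.1 to 301). The next highest were hypothalamus ADREX ozone 83 at 105 (28.7 to 270) and brainstem ADREX ozone 84 at 95.2 (25.9 to 244). Each rested on 4 Alas2 reads, and all 3 had Hbb under 200 normalized counts. The other libraries with Hbb under 200 had 24.1 to 37.7, on 2 to 4 Alas2 reads. Whether the proportion changes at low Hbb was not tested. In number 17 the ratio was 30.4 in the brainstem and 33.8 in the hypothalamus, from 103 and 98 Alas2 reads. The share of Hba-a3 among the α genes varied as well, with 1 to 4.5 reads per Hba-a2 read and a median of 1.76, and 4.5 came from 18 and 4 reads.

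**Figure D5:**
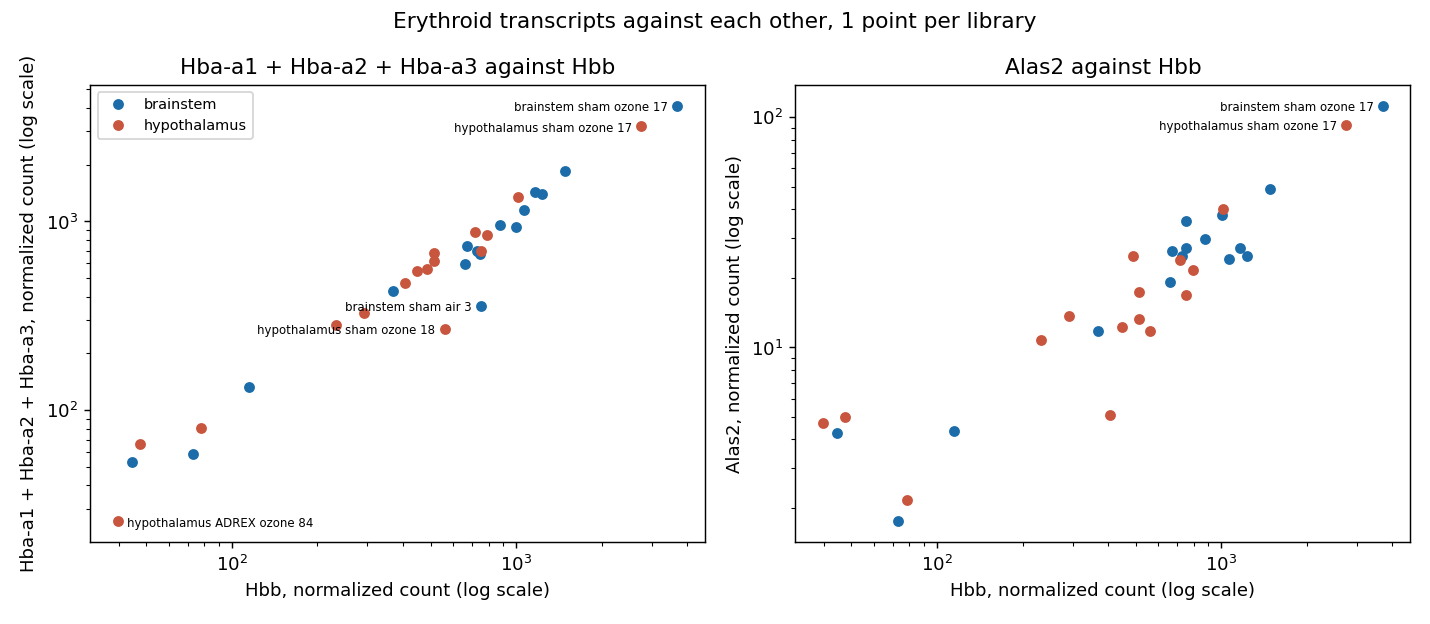
Summed normalized counts of the 3 α globin genes (left, y axis) and of Alas2 (right, y axis) against Hbb (x axis), all on log scales, with 1 point per library and brainstem in blue, hypothalamus in red. Points follow a line over a 92.6-fold range of Hbb, and brainstem sham air 3 and hypothalamus sham ozone 18 lie below it for the α genes.

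Across the 32 libraries, on deviations of log2(value + 1) from group means, the genes most like Hbb were Hba-a3 (r = 0.96), Hba-a2 (0.96), Hba-a1 (0.91) and Alas2 (0.90), followed by Atp13a5, a P-type ATPase gene (0.71), and Myom2, a myomesin gene (0.70). Those most like Alas2 were Hbb (0.90), Hba-a3 (0.88), Hba-a1 (0.86), Hba-a2 (0.85), Anapc4, a subunit of the anaphase-promoting complex (0.67), and Atp13a5 (0.66). These values are a description and were not tested, and 2.09% of 14532 genes had an r with Hbb over 0.5. Provisional symbols also stood near the top: LOC103694857 had r = 0.90, and LOC100134871, which RefSeq names Hbbl1, had 0.78. Both were picked after their values were seen. Atp13a5 itself moved little, from 65.2 to 177 normalized counts, against the 92.6-fold range of Hbb.

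Other genes of the red cell programme were compared as lists. Of the other globins, the embryonic Hbe1 had 0 reads in 31 libraries and Hbq1b in 27. The brain globins neuroglobin (Ngb, 49.99 to 113 normalized counts, r = 0.40 to Hbb) and cytoglobin (Cygb, 541 to 913, r = −0.05) were read in every library. Ahsp, a chaperone of free α globin, reached 4.79 at most. None of these 3 went beyond the range of the other 30 libraries in number 17, where Ngb was 50.2 and 86.1 in brainstem and hypothalamus, Cygb 768 and 676, and Ahsp 1.09 and 3.78.

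Of 12 heme synthesis genes, all measured at a mean of 10 or more, Urod had the highest r with Hbb (0.50), followed by Slc25a38, the mitochondrial glycine carrier (0.38), and Alad (0.33), and the median of the list was 0.13 against −0.00597 for all genes. Alas1, the form used outside the red cell line, ranged from 230.3 to 496 and had r = 0.27. In number 17 it stood at 306 and 325, within the range of the other 30 libraries. None of the 12 was called for ADREX against sham in ozone in either tissue. Of all genes, 2.44% were called in the brainstem and 2.24% in the hypothalamus.

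Red cell membrane genes divided. Slc4a1, the band 3 anion exchanger, was at 33.8 in the brainstem and 21.8 in the hypothalamus of number 17, against 0 to 7.45 in the other 30 libraries, and its mean of 4.27 was under the minimum for testing. Of the 20 listed genes 17 are in the table and 9 had a mean of 10 or more, with a median r to Hbb of −0.06. The highest were Ank1 (0.46), Sptb (0.42) and Tmod1 (0.38), which neurons also express. Of the erythroid transcription factors, Gata1 was at 0 in 28 libraries. Klf1 was at 0 in 2 and at 12.5 at most, and its mean of 3.76 was under the minimum for testing. The 4 list members with a mean of 10 or more had a median r of 0.17, led by Ldb1 (0.37).

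Among 15 tested genes of late erythroid cells and reticulocytes the median r to Hbb was −0.14. Alox15, the reticulocyte 15-lipoxygenase, had the highest at 0.57 and stood at 89.4 and 76.6 in brainstem and hypothalamus of number 17 against 6.49 to 31.0 elsewhere. Ube2o (0.50) and Bpgm (0.47), the red cell enzyme of 2,3-bisphosphoglycerate, followed. Between tissues, for the mean of 4 groups, Alox15 was higher in the hypothalamus, by 0.70 ± 0.27 (limma adjusted p = 0.0288). Of all genes, 27.1% were called higher there. The sign was opposite to that of the globin differences between tissues, which were not called in this fit. Car2, a carbonic anhydrase that glia also express, was the one member called for ADREX against sham in ozone. It was higher, by 0.40 ± 0.08 in the brainstem (limma adjusted p = 0.00964) and 0.71 ± 0.09 in the hypothalamus (limma adjusted p = 0.000165), opposite in sign to the globin differences. Of all genes, 1.19% and 1.04% were called higher there. Car2 was lower for ozone against air in sham rats, by −0.41 ± 0.08 and −0.56 ± 0.09 (limma adjusted p = 0.0136 and 0.00268). There 0.396% and 0.642% of all genes were called lower. Both contrasts share the sham ozone libraries.

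Of 10 genes that clear free globin and heme, Cd163, the macrophage receptor for haptoglobin-bound hemoglobin, was lower in ADREX than sham brainstem in ozone. Its difference was −1.87 ± 0.43 (limma adjusted p = 0.0264). The other 9 were not called in that contrast, where 2.44% of all genes were. None of the 10 was called in the hypothalamus, where 2.24% of all genes were. Across libraries Cd163 had r = 0.08 with Hbb, and Hmox1, the inducible heme oxygenase, had −0.27, with a list median of −0.11. Haptoglobin (Hp) and hemopexin (Hpx) ranged from 21.6 to 3006 and from 0.892 to 1774 and had r of −0.13 and −0.15.

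Markers of other blood cells and of vessels were read in the same libraries. Platelet markers summed to 13.4 to 50.8 normalized counts, lymphocyte markers to 27.7 to 68.5 and neutrophil and monocyte markers to 340.6 to 882. Their defining genes were at or near 0, as Ppbp was in 28 libraries, Cd3d in 31 and S100a8 in 20, and the median r to Hbb was 0.26, −0.09 and −0.20 over the 2, 1 and 3 members with a mean of 10 or more. Liver transcripts had a median r of −0.12 and choroid plexus markers −0.13. In the sham ozone groups platelet markers summed to 37.3 to 50.8 in the brainstem and 35.3 to 49.6 in the hypothalamus, in ADREX ozone to 23.4 to 46.0 and 14.1 to 46.3. Their part in the erythroid values was not tested.

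Of 12 endothelial markers tested, 3 had an r to Hbb over 0.5, where 2.09% of all genes had. They were Vwf, von Willebrand factor (0.64), Eng, endoglin (0.57), and Flt1, a VEGF receptor (0.55), with a list median of 0.19. The highest Vwf value, 1502 normalized counts in brainstem ADREX ozone, stood far above that group's median of 635. Its weight in the r of Vwf was not tested. For ADREX against sham in ozone, 6 of 12 rose in the brainstem, where 1.19% of all genes did, and none fell (median log2 difference 0.52 against −0.0045 for all genes), with Tie1 at 0.97 ± 0.12 (limma adjusted p = 0.000239) and Kdr at 1.07 ± 0.18 (adjusted p = 0.00257). In the hypothalamus 5 of 12 rose, where 1.04% of all genes did, among them Slco1c1 at 0.71 ± 0.12 (limma adjusted p = 0.00351). For ozone against air in sham rats, which shares the sham ozone libraries, 3 of 12 fell in each tissue, where 0.396% of all genes did in the brainstem and 0.642% in the hypothalamus: Slco1c1 (−1.04 ± 0.12), Tie1 and Kdr in the brainstem and Slco1c1 (−1.05 ± 0.12), Kdr and Emcn in the hypothalamus. In the brainstem the summed level of the list was 4729.6 to 5338 in sham air, 3583 to 4314 in sham ozone, 5016 to 5905 in ADREX air and 5038 to 6140 in ADREX ozone. In the hypothalamus it was 3765 to 4077, 2694 to 3080, 3746 to 4491 and 3411 to 3955 in the same order. The sham ozone group was thus the lowest for the vessel markers, and the other 3 groups overlapped. Its Hbb mean was the highest of each tissue through number 17. By median, brainstem Hbb stood at 812 in sham ozone, 958 in sham air, 832 in ADREX air and 220 in ADREX ozone. In the hypothalamus these medians were 537, 501, 542 and 140. Between tissues 11 of 12 were lower in the hypothalamus, where 26.9% of all genes were (median −0.45). Whether vessel content plays a part in either erythroid difference was not tested.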

How the data were processed

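The authors deposited 1 table with 22587 genes in rows and 32 libraries in columns, whose unit is a signal: counts of reads scaled per library. Per the submitters' processing notes, Partek, DESeq2 and the rat build rn6 were used, with no role or version named. The aligner and the annotation were not given in the sources used here. Values in each column were whole multiples of a single step (0.623 to 1.25), and division by it gave whole reads for 100% of values within 0.001. Groups and numbers came from the sample titles.

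Values were taken as log2(value + 1), which understates the differences of low genes. A gene entered a fit where its mean reached 10. Limma 3.58.1 (R 4.3.3, mean-dependent prior variance) was fitted across all genes with Benjamini-Hochberg adjustment within each contrast, and calls are at an adjusted p under 0.05. Contrasts within a tissue used that tissue's 16 libraries and 4 group means, and contrasts of tissues all 32 libraries and 8 means. Permutation tests are two-sided (Python 3.11.15, scipy 1.17.1). Exact permutation and sign-flip tests were not adjusted over genes. The fits were tested on simulated data.

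Alternatives were pseudocounts of 0.5 and 5, no minimum or a mean of 50, median-of-ratios and quantile scaling, totals without the erythroid genes, edgeR 4.0.16 and DESeq2 1.42.0 on the recovered reads, exact permutation, the compared groups alone, the number as a block, and each library left out in turn. Leaving out the libraries rich in liver transcripts was added after the data were seen, as were leaving out the 4 numbers with extreme Hbb values, edgeR with the block and the combinations of the block with other settings.

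The genes and lists were chosen with earlier results of these data known. Named genes are the erythroid genes whatever their p, the 6 genes with non-provisional symbols most correlated with Hbb and with Alas2, and, from each list, up to 4 called members per contrast and the 3 most correlated with Hbb. Some of these are not reported for length. Pecam1, planned as a comparison gene, was not analysed here. Promoters are RefSeq's for GRCr8, and motifs were searched by their letters on both strands.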

Additional observations from a re-analysis of the deposited data

Results flagged for a closer look

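In a sham ozone group of 4 libraries, number 17 stood apart from the other 3 by Dixon's criterion (a gap to the nearest library over 0.829 of the group's range) for 4 of the 5 erythroid genes in both tissues, 8 of 40 gene and group pairs examined. Chance flags about 1 in 20 where values follow a normal distribution. The criterion was applied to normalized counts and not to their log2, and skewed counts can be flagged more often. The 5 genes and the same-numbered libraries are also not independent of each other. Hbb was at 3691 normalized counts in the brainstem, against 669.5 to 876 in the other 3, and at 2743 in the hypothalamus, against 406 to 560.4. Hba-a2 was at 1405 and 1208, Hba-a3 at 2659 and 1945, and Alas2 at 112 and 92.7, in brainstem and hypothalamus. The liver transcript sum of number 17 was 23.3 RPM in the brainstem, and that of both its libraries was under the limit of 2000 RPM. The cause of these values was not tested.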

How the results depend on the processing

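Outside the fits with the replicate block, 329 of 334 alternative counts of erythroid genes called were, like the count reported, 0. The others were ADREX against sham in brainstem ozone and hypothalamus against brainstem in sham air. The first had 1 by DESeq2, 1 by exact permutation and, leaving out each library in turn, 0 to 4 (4 without ADREX ozone 81). The second had 1 in the compared groups alone and 1 by exact permutation. Counts by exact permutation are at a p under 0.05 that was not adjusted over genes. The correlations between tissues kept their sign and stayed past an unadjusted permutation p of 0.05 on deviations from group means, without the 2 farthest numbers and without each number in turn. Without the 4 numbers with extreme Hbb values (17, 68, 83 and 84) those of Hba-a3 (0.542), Hba-a1 (0.383) and Alas2 (0.316) did not, and those of Hbb (0.892) and Hba-a2 (0.696) did. Hba-a1 and Alas2 rest on the fewest reads, 0 to 44 and 2 to 103 per library. The cause of each change below was not tested.

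With the number as a replicate block, limma calls in hypothalamus against brainstem were 1 in sham air, 3 in sham ozone, 1 in ADREX air and 1 in ADREX ozone. Of all genes, 28.3%, 24.8%, 24.2% and 30.4% were called there. For the mean of 4 groups 5 were called (Hbb −0.64 ± 0.07, limma adjusted p = 3.49e-07), where 52.3% of all genes were. EdgeR with the replicate block called 2, 2, 1, 1 and 5, where 28.2%, 24.5%, 23.8%, 29.9% and 52% of all genes were. An exact sign-flip test over the 16 numbers gave 5 genes a p under 0.05, not adjusted over genes (Hbb p = 3.05e-05, the smallest it can give). For the mean, the block called 5 with quantile scaling, 4 with totals without the erythroid genes, and 4 without the numbers of the libraries rich in liver transcripts. Leaving out each number in turn, the block called 1 to 2 in sham air, 1 to 3 in sham ozone, 1 in ADREX air each time, 0 to 2 in ADREX ozone and 4 to 5 for the mean. Over all genes the numbers did not pair the libraries by the rule used: deviations of same-numbered libraries correlated over 0.1 in 7 of 16 pairs (r −0.531 to 0.612), and 4 of 16 libraries correlated best with their own number. Within tissues, all 32 libraries with the number as a random replicate block (consensus correlation −0.0369) called none of the erythroid genes.

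Signs turned in 32 alternatives for Hbb or Alas2, each for a difference that was not called, given here as log2 differences. Leaving out each library in turn, ozone against air in sham ranged for Hbb from −0.31 to 0.51 in the brainstem and −0.12 to 0.80 in the hypothalamus, and for Alas2 from −0.73 to 0.59 in the hypothalamus. ADREX against sham in air ranged for Hbb from −1.15 to 0.0777 in the brainstem and −1.02 to 0.21 in the hypothalamus, and for Alas2 from −0.74 to 0.33 and −0.87 to 0.36. The hypothalamic interaction of Alas2 ranged from −1.42 to 0.0783. Hypothalamus against brainstem ranged in ADREX air for Hbb from −1.43 to 0.0849 and for Alas2 from −1.23 to 0.17, and in ADREX ozone from −1.30 to 0.35 and −0.37 to 0.69. EdgeR and DESeq2 gave ADREX against sham in air 0.10 and 0.0915 for brainstem Alas2, 0.0697 and 0.0662 for hypothalamic Alas2, and 0.0148 and 0.0076 for hypothalamic Hbb. They gave Alas2 between tissues in ADREX ozone −0.21 and −0.19, edgeR with the block gave −0.0577, and the block without number 83 gave −0.17. Without the libraries rich in liver transcripts, ADREX against sham in hypothalamic air was 0.35 for Hbb and 0.50 for Alas2, and hypothalamus against brainstem in ADREX air 0.0849 and 0.17.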
